A study of Mus musculus with 28 samples.

Results

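Pclaf (ENSMUSG00000040204.7) is the gene of the PCNA clamp associated factor, and it was followed as 1 gene of the 55413 measured in 28 mice. It was chosen by its fold changes between the groups in earlier results of these data, so its levels and fold changes are given as a description, without a test. Values other than its group differences were tested: the relation of Pclaf to the clamp gene Pcna, the proliferation marker Mki67 and the T cell receptor gene Cd3e among mice of the same group, and the calls of 140 other replication and cell cycle genes. These tests and lists were also chosen with earlier results of these data known, and the calls come from the same libraries and comparisons.

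All libraries were made from RNA of CD3+ T cells taken by magnetic sorting from the spleens of wild type C57BL/6J mice, all male and aged 8 to 12 weeks. Mice of the rPS group (n = 5) received polymersomes loaded with rapamycin, which are vesicles of a block polymer of poly(ethylene glycol) and poly(propylene sulfide), under the skin at 1 mg/kg rapamycin and about 60 mg/kg polymer. Mice of the RO group (n = 6) received Rapamune, an oral form of rapamycin, by gavage at 1 mg/kg, and mice of the R group (n = 6) received free rapamycin at 1 mg/kg in 0.2% CMC (carboxymethylcellulose) under the skin. Mice of the PS group (n = 4) received empty polymersomes under the skin at the polymer dose of the rPS mice, and mice of the NT group (n = 7) were untreated. Treated mice had 11 doses in 11 days and no group received CMC alone. Each library is the bulk RNA of 1 mouse, although the series text speaks of single cells.

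PCNA is a ring that slides along DNA and holds the replicative polymerases and many repair enzymes in place. The human PCLAF protein, also called PAF15, is a small, largely unstructured protein that binds the ring through a PCNA-interacting motif. In human cells and in Xenopus egg extracts it is ubiquitinated on replicating DNA by UHRF1, which is part of how the methyltransferase DNMT1 is brought there, and it is removed at other times through the anaphase-promoting complex (APC/C). In human cells its gene is transcribed with the cell cycle under E2F factors and the DREAM repressor. In the spleen such genes are read in dividing lymphocytes and precursors, and little in resting T cells. Rapamycin inhibits mTOR, a kinase that promotes growth and entry into the cell cycle.

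The stretch before the Pclaf start is shown because E2F and CCAAT letters are the elements known for genes of this cycle. It is the 250 bases before the RefSeq start at chr9:65890073-65890322, plus strand, build GRCm38.p6. Capitals mark CCAAT on either strand and, at the end, the first letters of an E2F-like match that runs on past the start.
Pclaf upstream: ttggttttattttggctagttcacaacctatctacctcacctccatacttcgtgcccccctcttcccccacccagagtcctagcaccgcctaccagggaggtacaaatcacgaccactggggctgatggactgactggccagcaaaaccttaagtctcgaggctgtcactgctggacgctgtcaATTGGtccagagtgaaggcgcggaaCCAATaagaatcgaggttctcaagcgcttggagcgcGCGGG
A second E2F-like match lies after the start, and 30 bases around it are shown from chr9:65890333-65890362 of the same build, with the match in capitals.
Pclaf around the second match: atttaaacggtGGCGGGAAcatcattttcg
The letters TTTCCCGC were found on the minus strand from position -5 to 3 counted from the start, with no position 0, and TTCCCGCC on the minus strand from 22 to 29. These motifs share most of their letters, and none of TTTGGCGC, TTGGCGGG or TTTGAA was found on either strand of the 300 bases searched. CCAAT was found from -41 to -37 on the plus strand and from -66 to -62 on the minus strand. Of 32851 RefSeq promoter windows of this length, 1.1% held TTTCCCGC, 2.2% held TTCCCGCC and 37.4% held CCAAT. The shares were 0.5% for TTTGGCGC, 1.0% for TTGGCGGG and 17.9% for TTTGAA. The GENCODE annotation begins the gene further upstream, within the printed stretch, so the distances hold for the RefSeq start only.

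Total counts per library ran from 4286897 to 15696546, and 7 libraries stood apart. In 6 of them, namely replicate 3 of RO, replicate 3 of R and replicates 3, 4, 7 and 8 of NT, Cd3e was under 50 and the macrophage gene Lyz2 over 1000 CPM (counts scaled to a common library size, here the library total), against the labelled T cell sort. The seventh, RO replicate 7, lists no counts beyond a point on chromosome 12, and 97.93% of its counts lie on chromosomes 1 to 11. Pclaf and Cd3e on chromosome 9, Pcna on 2 and Mki67 on 7 are in the covered part. NT replicate 5 met neither limit and was not set apart, with Cd3e at 76 and Lyz2 at 693 CPM. These values lie between those of the NT libraries set apart and those of NT replicates 2 (401 and 310 CPM) and 6 (471 and 141 CPM). B cell markers were also abundant in the sort: the summed level of 11 B cell genes ran from 544 to 5638 CPM in rPS and from 2630 to 5583 CPM in NT. In bulk RNA of this kind, fewer cells of a type and less RNA per cell cannot be told apart.

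Pclaf was lowest with the loaded polymersomes and highest in untreated mice. In rPS mice it was read at 3.43, 4.34, 2.98, 2.0 and 2.48 CPM (replicates 1, 2, 4, 5 and 7), from 12 to 38 counts per library. In RO mice it was at 13.2, 12.6, 8.88, 8.6, 11.2 and 11.7 CPM (replicates 1 and 3 to 7), from 62 to 158 counts. In R mice the values were 4.14, 8.32, 5.13, 5.07, 4.33 and 4.13 CPM (replicates 2 to 7), from 26 to 50 counts. The R values lie close together except for replicate 3, one of the T cell-poor libraries, and that library is still below every RO, PS and NT value. PS mice had 13.5, 14.9, 15.9 and 12.1 CPM (replicates 1, 3, 4 and 5), from 93 to 150 counts. NT mice had 22.3, 20, 25.1, 20.5, 13.8, 27.5 and 29.4 CPM (replicates 2 to 8), from 139 to 342 counts. NT replicate 6, which had the highest Cd3e of all libraries, was the only untreated library inside the PS range.

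**Figure D1:**
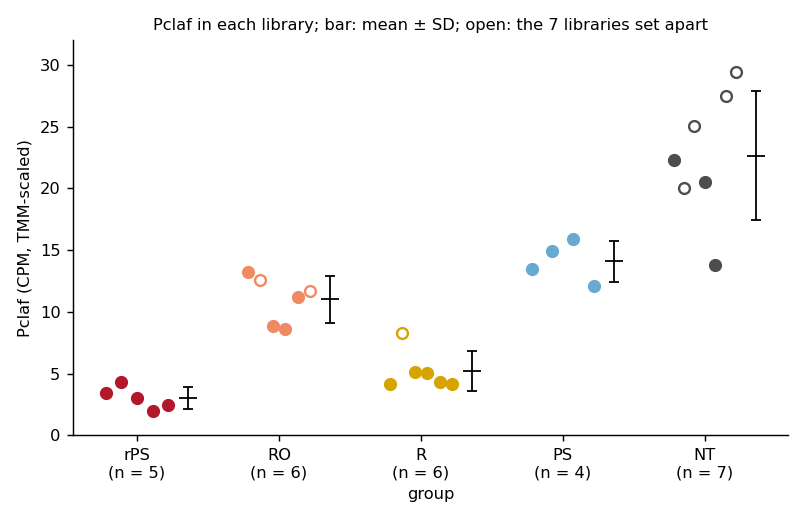
Pclaf in each library, in CPM after TMM scaling (vertical axis), by group (horizontal axis); bars give the mean and SD, and open points are the 7 libraries that stood apart. The 5 rPS points lie between 2.0 and 4.34 CPM, below all RO, PS and NT points. On this scale only the rPS and R, RO and PS, and PS and NT ranges meet, with a narrow gap between RO and NT.

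The means were 3.04 ± 0.901 CPM in rPS (SD, n = 5), 11.0 ± 1.91 in RO (n = 6), 5.19 ± 1.6 in R (n = 6), 14.1 ± 1.65 in PS (n = 4) and 22.7 ± 5.25 in NT (n = 7). The order from low to high was therefore rPS, R, RO, PS and NT. Of the neighbours in that order, rPS and R overlapped, RO and PS overlapped, and PS and NT overlapped, while R and RO did not. The gap between R and RO is narrow, 8.32 CPM in the highest R library against 8.6 CPM in the lowest RO library, and without the T cell-poor R replicate 3 the highest R library is at 5.13 CPM. RO and NT are also barely apart, at 13.2 CPM in RO replicate 1 and 13.8 CPM in NT replicate 6. Scaled to the library total instead, these 2 libraries were at 13.8 and 12.7 CPM, so RO and NT then overlapped. Counting error alone would give an SD of 0.72 CPM in rPS and 0.876 CPM in R, against SDs of 0.901 and 1.6 CPM found among these mice. In NT it would give 1.65 CPM, well under the 5.25 CPM found.

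Leaving out the 7 libraries kept the order. Mean Pclaf was then 10.5 ± 2.17 CPM in RO (n = 4), 4.56 ± 0.497 in R (n = 5) and 18.9 ± 4.49 in NT (n = 3), while rPS and PS keep all their libraries. Of the 4 NT libraries with little Cd3e and much Lyz2, replicates 4, 7 and 8 had the highest untreated values, at 25.1, 27.5 and 29.4 CPM, and replicate 3, at 20 CPM, was below NT replicates 2 and 5. Their part in the group difference was not tested beyond this comparison, and the difference between rPS and the 3 other NT libraries is given below. Those 3 include NT replicate 5, at only 69.1 CPM of Cd3e, so they are not all rich in T cell RNA.

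As a share of the mean in untreated mice, Pclaf stood at 13.4% in rPS, 48.7% in RO, 22.9% in R and 62.4% in PS. The log2 fold change against NT was -2.88 ± 0.23 (SE) in rPS, -1.04 ± 0.20 in RO, -2.13 ± 0.21 in R and -0.68 ± 0.22 in PS. Empty polymersomes are the matched carrier for the loaded ones, and the difference between rPS and PS was -2.20 ± 0.25. Against the same PS mice it was -1.45 ± 0.23 in R and -0.36 ± 0.23 in RO. Among the rapamycin groups, given at equal rapamycin dose by different routes and carriers, it was -0.76 ± 0.23 for rPS against R, -1.85 ± 0.23 for rPS against RO and -1.09 ± 0.21 for R against RO. These comparisons share libraries and are not independent of each other.

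Across all 17182 genes tested, edgeR called 11.8% in rPS against NT, 0.0116% in RO against NT, 0.291% in R against NT and 0.0291% in PS against NT at an adjusted p under 0.05. The shares were 0.0233% in rPS against PS, 0% in RO against PS, 0.0116% in R against PS, 0% in rPS against R, 0.0233% in rPS against RO and 0% in R against RO. The median log2 fold change of all genes lay between -0.10 and 0.08 in the 10 comparisons.

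Without the 7 libraries the Pclaf fold changes kept their sign in every comparison. They were -2.61 in rPS, -0.85 in RO, -2.05 in R and -0.42 in PS against NT, and -2.20 in rPS against PS. With the mean levels of the B cell, macrophage and red cell lists as covariates, the difference was -2.41 in rPS against NT and -0.20 in PS against NT. Leaving out each mouse in turn gave -3.06 to -2.76 in rPS against NT and -0.77 to -0.61 in PS against NT.

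**Figure D2:**
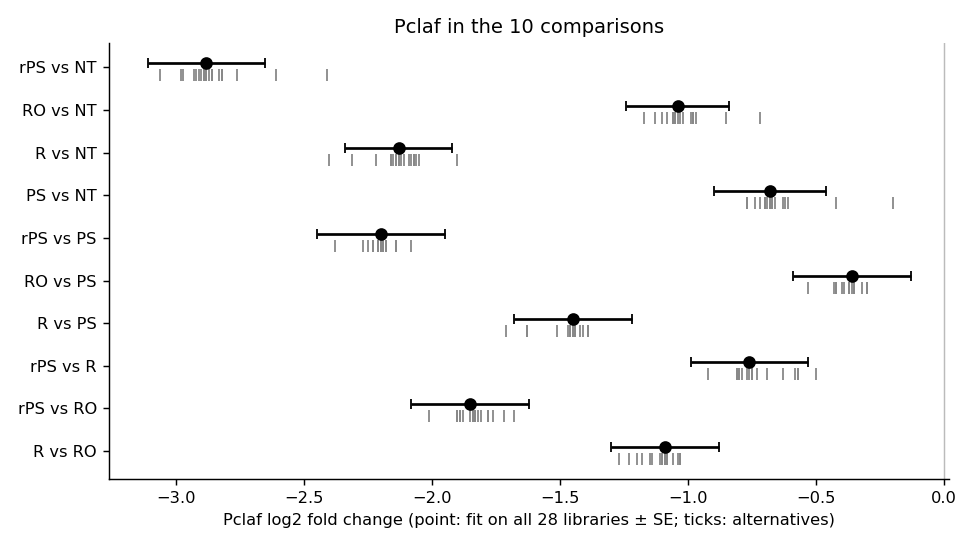
Log2 fold change of Pclaf (horizontal axis) in the 10 comparisons (vertical axis), first-named group over the second; the point and bar are the fit on all 28 libraries with its SE, and ticks are the alternative settings. All ticks lie below 0, and the tick farthest from its point is the covariate fit of PS against NT at -0.20.

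Pcna, the gene of the clamp that PCLAF binds, had overlapping levels in all groups. It averaged 100 ± 27.4 CPM in rPS, 91.3 ± 18.1 in RO, 79.9 ± 22.5 in R, 87.0 ± 12.4 in PS and 92.0 ± 15.4 in NT (SD). The rPS library with the least Pclaf, replicate 5 at 2.0 CPM, had the most Pcna of all 28 libraries, at 140.0 CPM. The Pcna log2 fold change against NT was 0.13 ± 0.19 in rPS, -0.01 ± 0.18 in RO, -0.20 ± 0.18 in R and -0.08 ± 0.20 in PS. Pcna was called in no comparison, and its edgeR adjusted p against NT was 0.722 in rPS, 0.991 in RO, 0.785 in R and 0.868 in PS. A processed pseudogene, Pcna-ps2, held 0 to 22 counts per library and so could have taken few reads from Pcna.

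Mki67, which encodes the Ki-67 protein of cycling cells, had lower means in all treated groups than in NT, with a wide spread. Its values in rPS mice were 76.3, 67.6, 129, 26.3 and 55.4 CPM (replicates 1, 2, 4, 5 and 7). The median was 117 CPM in RO (79.4 to 155), 168 CPM in R (71.2 to 236) and 142 CPM in PS (89.3 to 147), against 268 CPM in NT (125 to 539). Each pair of groups overlapped in Mki67. Its log2 fold change in rPS against NT was -2.03 ± 0.37 (edgeR, adjusted p = 0.00176), a call, and -1.39 ± 0.39 without the 7 libraries (edgeR adjusted p = 0.0528), which is not. It was -1.30 ± 0.33 in RO (adjusted p = 0.187), -0.81 ± 0.33 in R (adjusted p = 0.396) and -1.15 ± 0.38 in PS (adjusted p = 0.0897) against NT by edgeR, and none of these passed. In rPS against PS it was -0.88 ± 0.39 and in rPS against R -1.22 ± 0.36, with edgeR adjusted p = 1 and 0.394.

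Cd3e, which encodes a CD3 subunit of the antigen receptor, was called in no comparison by edgeR and varied most in NT. It had medians of 212 CPM in rPS (130 to 357), 238 in RO (52.9 to 279), 209 in R (10.8 to 242) and 268 in PS (229 to 344), against 47.5 CPM in NT (19.2 to 509).

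Dividing Pclaf by a partner gene within each library removes the scaling of the library. The log2 ratio of counts (with 0.5 added to each) carries the length of both transcripts, so its size has no meaning by itself, and its differences between groups do. The Pclaf to Pcna ratio averaged -5.01 ± 0.68 in rPS, -3.04 ± 0.37 in RO, -3.92 ± 0.65 in R, -2.61 ± 0.18 in PS and -2.04 ± 0.41 in NT (SD). Against NT the difference was -2.97 in rPS, -1.0 in RO, -1.88 in R and -0.57 in PS, close to the changes of Pclaf itself. No rPS library, from -6.09 to -4.40, reached any PS or NT library, from -2.83 to -1.68. The R libraries ran from -4.72 to -2.88, and their highest value again belonged to replicate 3.

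The Pclaf to Mki67 ratio gave another order, with R lowest. It averaged -4.37 ± 0.65 in rPS, -3.39 ± 0.25 in RO, -4.90 ± 0.62 in R, -3.17 ± 0.23 in PS and -3.57 ± 0.45 in NT. The difference from NT was -0.80 in rPS, 0.18 in RO, -1.33 in R and 0.40 in PS. The groups given injected rapamycin therefore had less Pclaf per Mki67 than the PS group, with differences of -1.20 in rPS and -1.73 in R, and the groups given Rapamune or the empty carrier were within 0.40 of NT. The ranges of R, -5.69 to -4.02, and of PS, -3.43 to -2.87, did not meet, nor did those of rPS, -5.37 to -3.67, and PS. R and NT met, since NT replicate 4 stood at -4.42. The rPS range overlapped that of R, and it also met those of NT, -4.42 to -3.15, and RO, -3.79 to -3.13. Without the 7 libraries the mean was -4.96 ± 0.67 in R and -3.27 ± 0.18 in NT, and neither R nor rPS then met NT.

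**Figure D3:**
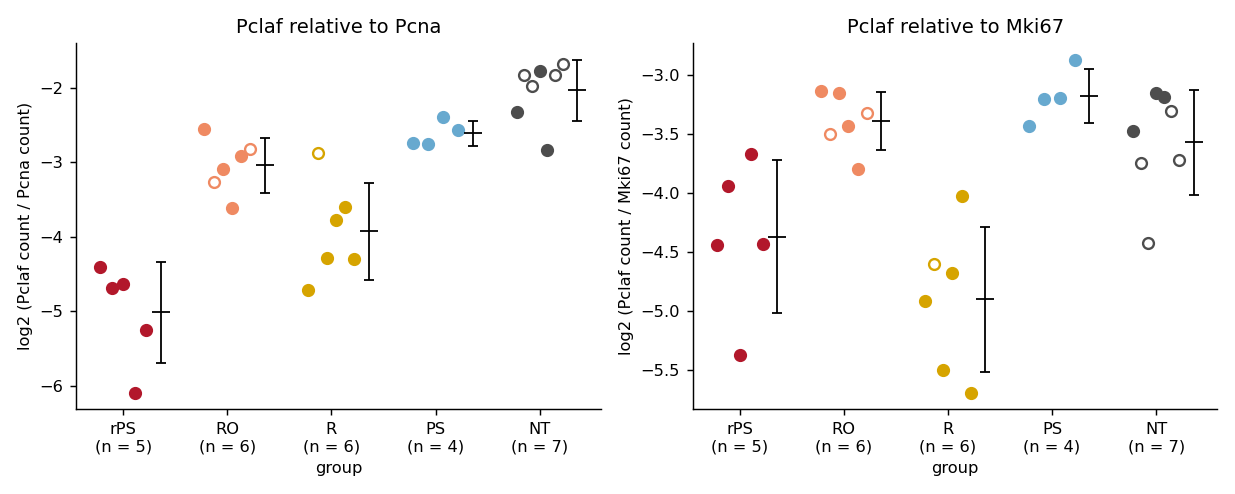
Log2 ratio of the Pclaf count to the Pcna count (left) and to the Mki67 count (right) in each library, by group; bars give the mean and SD, and open points are the 7 libraries that stood apart. Relative to Pcna the rPS group is lowest at -5.01, and relative to Mki67 the R group is lowest at -4.90.

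Among mice of the same group, Pclaf rose and fell with Mki67, while no such relation to Pcna passed the test. With the group means taken out of log2 CPM, the relation to Mki67 over 28 libraries had Pearson r = 0.63 (two-sided permutation p = 0.00275, adjusted over 3 partner genes 0.00813) and Spearman rho = 0.64 (permutation p = 0.00118). Without the 2 libraries farthest from the median of Mki67, r was 0.56 (permutation p = 0.0099). Without the 7 libraries it was 0.59 over 21 libraries, with a permutation p of 0.0188 that was 0.0565 when adjusted and so missed the threshold of 0.05. The relation to Pcna had r = -0.14 (permutation p = 0.534) and rho = -0.08 (permutation p = 0.699), with r = -0.08 without the 2 farthest libraries and -0.19 over the 21 libraries.

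Most libraries fall into T cell-poor and T cell-rich ones in Cd3e, so its relation to Pclaf was read over the 21 libraries, where r was -0.31 (permutation p = 0.399, adjusted 0.492) and rho -0.17. The 21 still hold NT replicate 5, at 69.1 CPM of Cd3e, beside 416 and 509 CPM in NT replicates 2 and 6. Over all 28 libraries r was -0.62 (permutation p = 0.00542, adjusted 0.00813) and rho -0.57 (permutation p = 0.00303). This rests on the outer libraries, since without the 2 farthest from the Cd3e median r was -0.23 (permutation p = 0.286), and without R replicate 3 alone it was -0.47 (adjusted permutation p = 0.0801). Within single groups the relation of Pclaf to Mki67 had r = 0.74 in RO (exact permutation p = 0.114, n = 6), 0.39 in R (exact permutation p = 0.475, n = 6) and 0.81 in NT (exact permutation p = 0.0321, adjusted 0.0964, n = 7). Spearman rho was 0.54 in RO, 0.26 in R and 0.79 in NT, and r without the 2 farthest libraries was 0.83, 0.37 and 0.75 in the same groups. The 9 such relations of 3 partners in 3 groups had no adjusted p under 0.05.

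**Figure D4:**
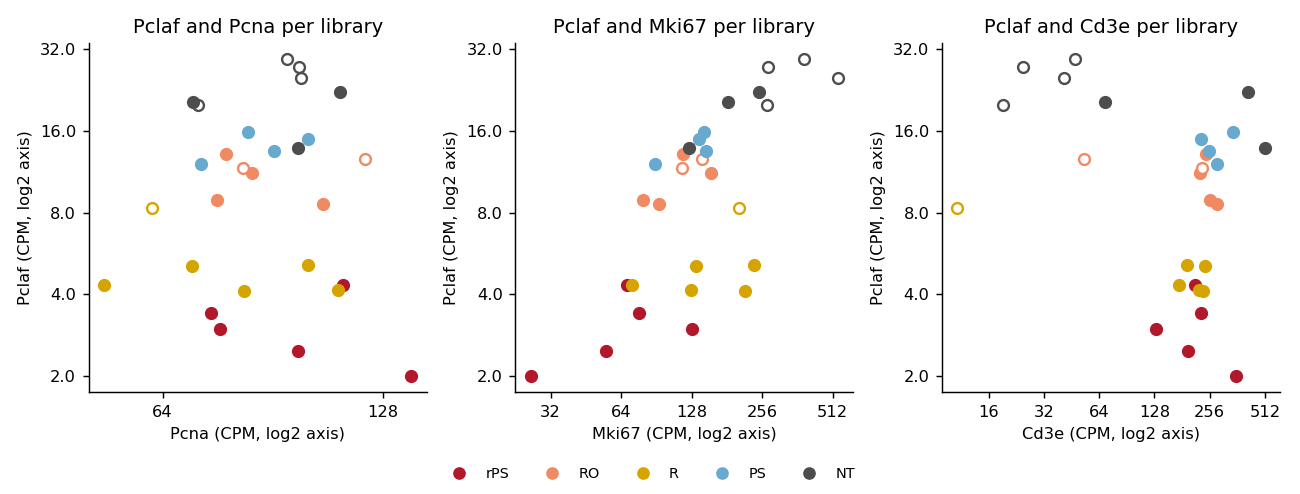
Pclaf (vertical axis) against Pcna, Mki67 and Cd3e (horizontal axes) in each library, all in CPM on log2 axes and coloured by group; open points are the 7 libraries that stood apart. At like Pcna the groups differ in Pclaf, with overlap of rPS and R, of RO and PS, and of PS and NT. In Cd3e, 6 of the open points lie at 52.9 CPM or below.

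The other genes of clamp function, replication and the cell cycle were taken from 8 lists of 141 genes. Of these, 140 were matched and passed the filter on low counts, and 32 of them are listed at 0 in RO replicate 7, which enters its group's values. In rPS against NT, 42 of these were lower and 1 was higher by edgeR at an adjusted p under 0.05, while 6.01% of all genes tested were called lower and 5.74% higher. The calls were uneven over the lists. Of 24 mitosis genes, 23 were called lower, with a median log2 fold change of -1.96, against -0.01 over all genes. No other list had a median below -0.35. Without the 7 libraries, which leaves 3 NT mice, 26 of the 140 were called lower, 18 of them in mitosis, beside 2.3% of all genes, and the mitosis median was -1.50. With the 3 marker covariates 19 of the 140 (13.6%) were called in either direction, beside 3.13% of all genes.

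The genes closest to the PCLAF protein in function are on 3 lists, and 6.01% of all genes were called lower in rPS against NT. Of 10 genes for the clamp and its loaders, 1 was called lower: Atad5, the unloader of the clamp, at -0.65 ± 0.15 (edgeR adjusted p = 0.00802), with a mean of 14.9 ± 1.04 CPM in rPS and 23.3 ± 4.3 CPM in NT. Of 22 enzymes and factors that bind the clamp, 3 were called lower and 1 higher. Exo1, an exonuclease of mismatch repair, was at -1.22 ± 0.27 (edgeR adjusted p = 0.00776), and Uhrf1, the ubiquitin ligase of PAF15, at -1.80 ± 0.57 (edgeR adjusted p = 0.0395). Uhrf1 averaged 13.4 ± 3.67 CPM in rPS, from 8.27 to 17.6, and 46.7 ± 17.9 CPM in NT, from 27.2 to 75.6, so the groups did not overlap. Uhrf1 stayed called without the 7 libraries, at -1.28 ± 0.23 (edgeR adjusted p = 0.00546), and Atad5 (adjusted p = 0.0648) and Exo1 (adjusted p = 0.218) did not. The call in the clamp and loader list was then Rfc4, a loader subunit, at -0.98 ± 0.24 (edgeR adjusted p = 0.0316). Rnaseh2a, the catalytic subunit of the enzyme that cuts RNA from DNA, was the gene called higher, at 0.51 ± 0.15 (edgeR adjusted p = 0.0341), and 0.20 ± 0.17 without the 7 libraries (edgeR adjusted p = 0.505). None of the 15 genes of clamp ubiquitination and translesion synthesis was called by edgeR, while 5 of them (and 29.2% of all genes) had an unadjusted p under 0.05. Leaving out the 7 libraries, 1 was called lower, the conjugating enzyme gene Ube2a, beside 2.3% of all genes.

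Genes that prepare replication gave a middle picture in rPS against NT, where 6.01% of all genes were called lower. Of 24 genes of origin licensing and the replicative helicase, 4 were called lower, among them Mcm10 at -1.92 and the loading factor Cdc6 at -1.40. Of 10 genes of nucleotide supply, 3 were called lower, led by Rrm2, the regulated subunit of ribonucleotide reductase, at -1.92 ± 0.37, with 8.83 ± 4.64 CPM in rPS and 33.2 ± 13.2 CPM in NT. Of 19 E2F, MuvB and DREAM regulators, 7 were called lower. E2f7, a repressor that is itself an E2F target, was at -2.36 ± 0.36 (edgeR adjusted p = 0.000401), from 0.533 to 2.48 CPM in rPS and from 2.48 to 9.93 CPM in NT, so the groups meet at their edges. E2f8 was at -2.40 and Foxm1, which drives genes of mitosis, at -1.42. Leaving out the 7 libraries, 2.3% of all genes were called lower. The calls were then 0 of 24 origin and helicase genes, 3 of 10 genes of nucleotide supply and 1 of 19 regulators, E2f7 at -1.91 ± 0.40 (edgeR adjusted p = 0.0182). Of 16 APC/C genes, 1 was called lower with all libraries, a share near that of all genes: Fbxo5, an inhibitor of that ligase, at -0.75 ± 0.21 (edgeR adjusted p = 0.023).

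In R against NT, 6 of the 140 genes were called lower and none higher by edgeR, with 0.268% of all genes called lower. Of these, 5 belong to mitosis. Stmn1, which destabilises microtubules, was at -1.43 ± 0.21 (edgeR adjusted p = 0.00144), with 10.1 ± 3.91 CPM in R and 27 ± 4.76 CPM in NT. Top2a, the topoisomerase that untangles chromosomes, was at -1.63 ± 0.28 (edgeR adjusted p = 0.00775), with 41.5 ± 15.2 CPM in R and 128 ± 51.1 CPM in NT. Cdc20, Bub1 and Ttk were at -1.25, -1.81 and -1.77, and the sixth gene was E2f7 at -1.55 ± 0.31 (edgeR adjusted p = 0.0291). The count depends on single libraries: it was 12 without R replicate 3 (0.976% of all genes), 11 without NT replicate 5 (0.904%) and 2 without R replicate 6 or 7 (0.0758% and 0.0759%). The fit without the 7 libraries called 1, Stmn1 at -1.51 ± 0.26 (edgeR adjusted p = 0.0107), with Top2a at -1.18 ± 0.28 (adjusted p = 0.113).

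No gene of the 8 lists was called by edgeR in the other 8 comparisons, and other counts are read beside the share of all genes that the same rule called. In RO against NT, 37 of the 140 (and 11% of all genes) had an unadjusted p under 0.05, DESeq2 called 17 (and 1.44% of all genes), and limma voom with sample weights called 72 (and 46.9% of all genes). In PS against NT, 32 of the 140 (and 23.6% of all genes) had an unadjusted p under 0.05, DESeq2 called 16 (11.4%, beside 11.7% of all genes), and voom called 78 (55.7%, beside 54.5% of all genes). The shares of the lists in PS against NT are thus near those of all genes. In rPS against PS, 30 of the 140 (and 3.59% of all genes) had an unadjusted p under 0.05, DESeq2 called 4 (and 0.256% of all genes), and voom called 2 (and 0.122% of all genes).

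The median of the 24 mitosis genes was below that of all genes, at -1.06 in RO against NT, -1.09 in R against NT, -0.92 in PS against NT and -1.11 in rPS against PS. Part of this rests on the libraries that stood apart. Without the 7 libraries the medians were -0.62 in RO, -0.73 in R and -0.43 in PS against NT, and -1.11 in rPS against PS.

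In the remaining comparisons DESeq2 and voom called at most 3 of the 140, except for voom in R against PS. In RO against PS, 1 of the 140 (and 2.09% of all genes) had an unadjusted p under 0.05, and DESeq2 and voom each called 0 (and 0.00582% of all genes). In R against PS it was 10 (and 5.92% of all genes), DESeq2 called 1 (0.215% of all genes) and voom 20 (6.04% of all genes). In rPS against R it was 20 (and 8.03% of all genes), DESeq2 called 1 (0.233% of all genes) and voom 0 (0% of all genes). In rPS against RO it was 29 (and 6.81% of all genes), DESeq2 called 3 (0.495% of all genes) and voom 0 (0.0175% of all genes). In R against RO it was 7 (and 2.51% of all genes), DESeq2 called 0 (0.0757% of all genes) and voom 2 (0.762% of all genes). In R against NT, where edgeR called 6, the unadjusted count was 44 (and 9.92% of all genes), DESeq2 called 27 (1.68% of all genes) and voom 76 (41.2% of all genes).

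The place of Pclaf among these genes can be given by counting the list genes with a lower fold change. That count was 1 of 140 in rPS against NT, where the gene is Bub1, a mitotic checkpoint kinase at -3.03 ± 0.45. It was 0 in R against NT, in rPS against PS, in R against PS, in rPS against RO and in R against RO. It was 16 in RO against NT, 26 in PS against NT, 17 in RO against PS and 22 in rPS against R. In the comparison of R with PS, where Pclaf was at -1.45, the 24 mitosis genes had a median of -0.22. Since Pclaf was chosen for its differences, these places describe it and are not evidence for it.

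**Figure D5:**
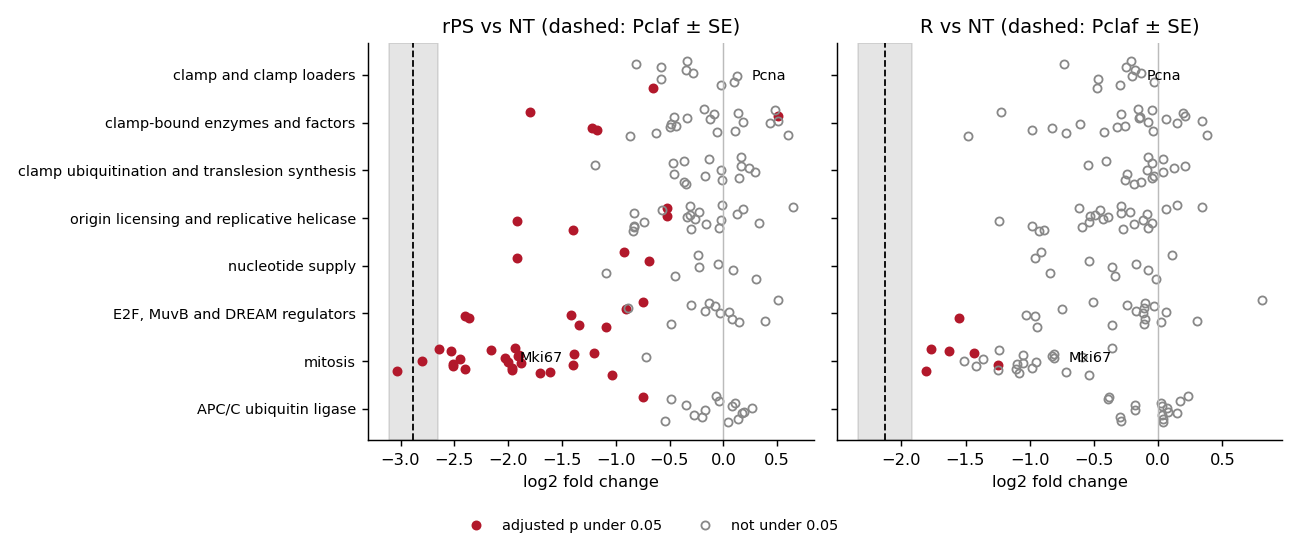
Log2 fold change (horizontal axis) of each gene of the 8 lists (rows) in rPS against NT (left) and R against NT (right); filled points have an edgeR adjusted p under 0.05, and the dashed line with its band is Pclaf with its SE. On the left 23 of 24 mitosis genes are filled and 1 gene, Bub1, lies below Pclaf, and on the right no gene does.

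The genes whose log2 CPM followed that of Pclaf most closely were sought among 14311 genes with a mean of at least 2 CPM over the 27 libraries other than RO replicate 7. The highest Pearson r was 0.94 for Cep55, which acts in the last cut of cell division, with means of 1.08 CPM in rPS, 3.08 in RO, 1.29 in R, 5.06 in PS and 7.68 in NT. The RO mean of Cep55 includes RO replicate 7, which has no counts on chromosome 19, where Cep55 lies, and so is too low. Others among the first 10 were Top2a (0.93), the kinetochore gene Spc24 (0.92) and Uhrf1 (0.91). Spc24 averaged 1.7 CPM in rPS, 3.39 in RO, 2.24 in R, 4.85 in PS and 6.78 in NT. Eaf2 (0.91), a transcription elongation factor abundant in germinal centre B cells, Cip2a (0.90), Ighg2c (0.89), Igkv12-46 (0.89) and Shcbp1 (0.89) were also among them.

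The list of 10 mixes genes of cell division with immunoglobulin segments of B lineage cells. Ighg2c, an antibody heavy chain constant region, averaged 6.84 CPM in rPS, 93.8 in RO, 16.7 in R, 66.6 in PS and 288 in NT. Its RO mean also includes RO replicate 7, whose counts stop on chromosome 12, where Ighg2c lies, and may be too low. Igkv12-46 is 1 of many similar light chain segments, so reads could be split among them. With the group means removed, the r of the 10 genes with Pclaf ran from 0.54 to 0.78. By the r that keeps the group differences, E2f7 ranked 27 of 14311 genes (r = 0.86), Cdk1 76 (0.80), Rrm2 155 (0.75), Mki67 222 (0.71), Pcna 7463 (-0.02) and Cd3e 11799 (-0.38). All values share library and scaling, and the group differences are part of r.

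Markers of other cells are given beside Pclaf for the same groups. Of 9 germinal centre B cell genes, 6 were called lower by edgeR in rPS against NT, beside 6.01% of all genes, and 4 of 9 without the 7 libraries, beside 2.3%. Mybl1, a transcription factor of those cells, averaged 1.18 ± 0.362 CPM in rPS, 3.93 ± 1.07 in RO, 1.25 ± 0.559 in R, 5.62 ± 2.21 in PS and 5.57 ± 2.04 in NT. Its log2 fold change was -2.26 ± 0.35 in rPS against NT, -2.14 ± 0.32 in R against NT and -2.27 ± 0.38 in rPS against PS, with edgeR adjusted p = 0.000565, 0.00149 and 0.0176. It stayed called in all 3 without the 7 libraries, at -2.43 ± 0.39, -2.50 ± 0.38 and -2.28 ± 0.37 in the same order (edgeR adjusted p = 0.00264, 0.00337 and 0.00913). Like Pclaf it was low in the groups given injected rapamycin, but its mean in PS was close to that in NT. The list as a whole did not follow Mybl1 throughout. In R against NT 2 of the 9 genes were called lower, beside 0.268% of all genes. In R against PS 1 was called lower, beside 0.0116% of all genes, and only 5 of 9 had a negative fold change (median -0.31). In PS against NT 0 were called, and 7 of 9 had a negative fold change (median -0.39). Rgs13, another marker of the list, was listed at 0 in all 5 rPS libraries and averaged 1.28 ± 0.634 CPM in NT. The summed level of the list, to which genes read in other cells contribute, was 307 to 457 CPM in rPS, 374 to 513 in RO (n = 5, without replicate 7), 353 to 547 in R, 332 to 398 in PS and 372 to 531 in NT.

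Other lists moved in rPS against NT as well. Called lower by edgeR were 6 of 10 plasma cell genes, 7 of 9 NK cell genes, 10 of 10 neutrophil genes and 3 of 11 monocyte and macrophage genes. Called in neither direction were all 15 T cell, 11 B cell and 11 red cell genes. Beside these counts, 6.01% of all genes were called lower and 5.74% higher. Without the 7 libraries the calls were 1 of 9 plasma cell genes, 7 of 9 NK cell genes, 1 of 9 neutrophil genes and 1 of 11 monocyte and macrophage genes. Of all genes, 2.3% were then called lower. The median of the T cell list changed sign, at 0.48 with all libraries and -0.48 without the 7. The plasma cell list summed to 982 to 4674 CPM in rPS, 3187 to 7708 in RO (n = 5, without replicate 7), 3296 to 4122 in R, 3477 to 5248 in PS and 3344 to 19885 in NT. The monocyte and macrophage list summed to 265 to 2051 CPM in rPS and 1053 to 12157 CPM in NT, and the neutrophil list to 5.87 to 63.1 CPM in rPS and 22.8 to 3842 CPM in NT. NK cell genes summed to 81.9 to 135 CPM in rPS and 115 to 298 CPM in NT, and T cell genes to 1509 to 3897 CPM in rPS and 457 to 5121 CPM in NT. Apart from Rgs13 in rPS, no marker of these lists was at 0 in a whole group. The part of these cells in the Pclaf difference was not tested beyond the covariate fit and the fit without the 7 libraries. The covariate fit had terms for the B cell, macrophage and red cell lists only.

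Pclaf lies inside Trip4, a coactivator gene on the opposite strand, in the GRCm38 annotation, with 0 bases of shared exon. Whether the counting used strand is not stated, so reads of unspliced Trip4 RNA cannot be told apart from those of Pclaf. Trip4 averaged 28.8 ± 5.71 CPM in rPS, 32.5 ± 4.01 in RO, 33.7 ± 5.8 in R, 32.1 ± 2.87 in PS and 41.1 ± 3.67 in NT. Its log2 fold change in rPS against NT was -0.51 ± 0.14 (edgeR adjusted p = 0.0189), much smaller than that of Pclaf, and it was called in no other comparison. Leaving out the 7 libraries gave -0.48 ± 0.17 (edgeR adjusted p = 0.116) and so not called.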

How the data were processed

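Expected counts per gene, with fractional values, were deposited by the authors in 1 file per mouse. Per the submitters' processing notes, Trimmomatic 0.39, STAR 2.7.5a, Cufflinks 2.1.1 and Cuffdiff were used with the build GRCm39. The sources used here do not say which tool counted, with which annotation, or whether strand was used. The counts were rounded and joined by gene ID, and 52082 of 55413 IDs received symbols from GENCODE M21 (GRCm38), which served for names and chromosomes only. Promoter sequence came from RefSeq (GRCm38.p6).

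Groups came from the labels. No pair of libraries was a repeat (lowest chi-square per gene 3.29). edgeR 4.0.16 in R 4.3.3 (quasi-likelihood, robust, two-sided, TMM, filterByExpr by group) was fitted once on all 28 libraries and 17182 genes, with Benjamini-Hochberg adjusted p under 0.05 as a call. CPM are TMM-scaled unless said otherwise, and log2 CPM has a prior count of 2. The SE of a fold change was derived from the fit as its absolute value over the square root of its quasi-likelihood F. Correlations used 100000 permutations within groups, or exact permutations in single groups. A count of 0 allows up to 3 counts. Intervals and floors cover counting error only. The edgeR fit was also run on simulated counts, for rPS against NT only and without RO replicate 7. These counts held no difference in cell mixture, so the run does not bear on the libraries that stood apart or on other comparisons.

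Named genes were Pclaf, its 3 partners, the 10 most alike genes (1 is not reported here), the list genes with the smallest p (up to 4 per list in rPS against NT and 2 elsewhere) and set markers. Genes outside this rule (Trip4, Rgs13, Pcna-ps2, Rfc4, Ube2a) were chosen after their values were seen. The gene, lists and tests were chosen with earlier results of these data known. Labels do not say that mice of a group were housed or sorted separately, so p-values measure the spread between these samples. Alternatives were DESeq2 1.42.0, limma 3.58.1 voom with sample weights, DESeq2 size factors, no filter, the compared groups only, a replicate block, 3 marker covariates, chromosomes 1 to 11 only, leaving out 7 libraries and leaving out each library.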

Additional observations from a re-analysis of the deposited data

Results flagged for a closer look

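Each of 20 sets of values (4 genes in 5 groups) was searched for a library far from the rest, and 4 were found, where chance gives about 1 in 20 sets. Pclaf in R replicate 3 was at 8.32 CPM, while the other R libraries ran from 4.13 to 5.13 CPM. Cd3e in the same library was at 10.8 CPM, with 175 to 242 CPM in the others. Cd3e in RO replicate 3 was at 52.9 CPM, with 227 to 279 CPM in the others. Mki67 in PS replicate 5 was at 89.3 CPM, with 138 to 147 CPM in the others, and Pclaf in that library, at 12.1 CPM, was the lowest of the PS group. R replicate 3 and RO replicate 3 are among the T cell-poor libraries, and PS replicate 5 is not.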

How the results depend on the processing

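The sign of the Pclaf difference was the same in all 10 comparisons under every alternative run, and with 3 marker covariates it was -2.41 in rPS against NT and -0.20 in PS against NT. Leaving out each mouse gave -3.06 to -2.76 (rPS), -1.13 to -0.98 (RO), -2.31 to -2.07 (R) and -0.77 to -0.61 (PS) against NT, -2.38 to -2.08 (rPS), -0.42 to -0.30 (RO) and -1.63 to -1.39 (R) against PS, -0.92 to -0.57 for rPS against R, -2.01 to -1.72 for rPS against RO and -1.27 to -1.03 for R against RO.

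The number of the 140 list genes called was less stable, and the cause was not tested; the share of all genes called by the same setting follows each count in parentheses. In rPS against NT (43) it was 71 with voom (35.9%), 19 with covariates (3.13%) and 26 without the 7 libraries (3.19%). In R against NT (6) it was 3 with no filter (0.0516%), 27 with DESeq2 (1.68%), 76 with voom (41.2%), 1 with the compared groups only (0.0639%), 13 with covariates (0.71%) and 1 without the 7 libraries (0.241%). In RO against NT (0) it was 17 with DESeq2 (1.44%) and 72 with voom (46.9%). In PS against NT (0) it was 16 with DESeq2 (11.7%), 78 with voom (54.5%) and 16 with the compared groups only (12.3%). On chromosomes 1 to 11, of 106 list genes, it was 14 in R (0.807%) and 7 in PS (7.6%) against NT. In rPS against PS (0) it was 4 with DESeq2 (0.256%), 2 with voom (0.122%), 4 with covariates (0.14%) and 3 without the 7 libraries (0.241%). In R against PS (0) it was 1 with DESeq2 (0.215%), 20 with voom (6.04%) and 1 without the 7 libraries (0.294%). It was 1 with DESeq2 in rPS against R (0.233%), 3 with DESeq2 (0.495%) and 1 with covariates (0.0524%) in rPS against RO, and 2 with voom in R against RO (0.762%).

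Leaving out each mouse gave 33 to 48 in rPS against NT, 2 to 12 in R against NT, 0 to 4 in RO against NT, 0 to 6 in PS against NT, 0 to 2 in rPS against PS, 0 to 1 in R against PS and in R against RO, and 0 to 0 in the other 3. In R against NT it was 3 without R replicate 2 or 5 or NT replicate 4, 7 or 8, 2 without R replicate 6 or 7, leaving out R replicate 3 gave 12, and leaving out NT replicate 5 or 6 gave 11 or 10, while the share of all genes ran from 0.0758% (without R replicate 6) to 0.976% (without R replicate 3). Leaving out NT replicate 5 or 6 gave the highest counts in RO against NT, 4 and 3 (0.577% and 0.134% of all genes). In PS against NT these gave 6 and 4, or 4.29% and 2.86% of the lists, not above the 6.66% and 2.95% of all genes. The highest count in rPS against PS was 2 without rPS replicate 4 (0.0643%). Without R replicate 3 it was 1 in R against PS (0.0292%) and in R against RO (0.0117%). In rPS against NT the share of all genes ran from 5.52% (without rPS replicate 7) to 16.6% (without NT replicate 5). Correlations ranged from -0.22 to 0 for Pcna, 0.56 to 0.69 for Mki67 and -0.69 to -0.47 for Cd3e, and were 0.59 for Mki67 and -0.31 for Cd3e without the 7 libraries. Deviations of libraries with the same replicate number had a median r of 0.0468 over 41 pairs (-0.357 to 0.78). With different numbers it was 0.00642 over 270 pairs. A median near 0 cannot settle whether the numbers paired mice. With a replicate block the counts were 33 in rPS against NT (3.64% of all genes) and 2 in R against NT (0.0524%). Counts of 12 to 38 for Pclaf limit what can be said among rPS mice.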
